A study of Mus musculus with 152 samples.

Results

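Liver RNA was compared between mice fed LIDPAD for 4 weeks and mice fed LIDPAD for 1 week. LIDPAD is the diet with which the study brings on fatty liver disease in mice. All groups were C57BL/6J mice, an inbred laboratory strain, whose feeding began at 8 weeks of age. They were given either LIDPAD or a purified control diet, and no genotype or other agent is named in the labels. The samples were chosen by their labels: 16 of the 152 samples of the study are LIDPAD livers of weeks 1 and 4. They came in blocks of 4 columns that were as alike as parts of 1 library, with a chi-square per gene of 2.02 to 2.24 within blocks and 3.58 to 11.8 between blocks of the same group at weeks 1 and 4. Each block was counted as 1 library, which left 4 of the 38 libraries of the study, 2 at week 1 and 2 at week 4. The 16 control samples of the same weeks formed 4 libraries in the same way. The labels do not say whether the libraries came from separate animals or whether animals were pooled, so p-values measure only how these libraries vary, and that variation may be technical.

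Values are FPM, read counts per gene scaled by a size factor to 1000000. The 4 LIDPAD libraries held 32.3 to 49.6 M (1000000 reads) each and the 4 control libraries 24.8 to 53.8 M. Mitochondrial ribosomal RNA took 18.4 to 21.5% of reads in these 8 libraries, and 23289 to 24480 genes were detected per library in LIDPAD. All 8 hepatocyte defining markers were measured in every library. Of 10 neutrophil markers, 3 (Ngp, Mpo and Ly6g) were at 0 in all 4 LIDPAD libraries. Another neutrophil marker, Csf3r, was at 1.56 to 2.14 FPM in those libraries. The Y-linked gene Ddx3y lay between 58.1 and 79.4 FPM and Xist was at most 0.686 FPM in the 8 libraries.

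A fatty liver stores surplus fatty acids as triglyceride in lipid droplets, which are coated by perilipins. Fatty acids that are not stored are burned in mitochondria and peroxisomes or hydroxylated by Cyp4a enzymes, steps that the nuclear receptor PPAR alpha turns on. Fatty acid synthesis is driven by the transcription factors SREBP1c and ChREBP. Hepatocytes around the portal vein make urea, and hepatocytes also secrete most plasma proteins and, in mice, the major urinary proteins (Mup), small carriers of pheromones. Kupffer cells are the resident macrophages of the liver.

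The 250 bases before the RefSeq start (GRCm38.p6) are shown for Plin4, the only gene called in LIDPAD, and for Mup7 and Mup15, members of the gene family whose libraries separated most often. Capitals mark CCAAT (the CCAAT box) and TTATGNAA, searched on both strands. TTATGNAA, with any base at N, is a loose form of the D-box that clock-controlled PAR bZIP factors bind. All 3 genes lie on the minus strand, and the sequences read 5′ to 3′ toward the start.
Plin4, chr17:56109783-56110032: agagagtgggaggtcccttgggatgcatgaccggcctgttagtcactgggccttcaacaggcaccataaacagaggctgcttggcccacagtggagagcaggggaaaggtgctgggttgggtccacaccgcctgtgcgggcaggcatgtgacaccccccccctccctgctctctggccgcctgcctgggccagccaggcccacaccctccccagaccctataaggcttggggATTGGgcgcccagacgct
Mup7, chr4:60070476-60070725: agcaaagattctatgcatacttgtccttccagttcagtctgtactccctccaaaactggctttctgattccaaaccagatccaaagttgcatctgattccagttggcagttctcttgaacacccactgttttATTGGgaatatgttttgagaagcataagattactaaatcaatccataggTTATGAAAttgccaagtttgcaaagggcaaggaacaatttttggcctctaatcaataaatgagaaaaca
Mup15, chr4:61439705-61439954: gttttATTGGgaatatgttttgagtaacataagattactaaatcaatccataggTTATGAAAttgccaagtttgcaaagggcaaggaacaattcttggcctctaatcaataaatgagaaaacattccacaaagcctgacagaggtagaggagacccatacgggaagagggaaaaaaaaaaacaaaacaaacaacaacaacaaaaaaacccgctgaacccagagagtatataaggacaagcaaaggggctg
A CCAAT box was on the reverse strand of each. Counting either strand, 33.8% of all 32851 promoter windows of this length held one. The Plin4 and Mup15 windows run into the genes as GENCODE annotates them. The Plin4 box, 18 bases before the RefSeq start, lies inside that annotated gene. The loose D-box letters were found once in Mup7 and once in Mup15, against 3.07% of all windows, and were not in the Plin4 window. Both sites read TTATGAAA, and binding was not tested. Mup7 and Mup15 shared 120 of 123 bases when offset by 127 bases, so their windows cover partly the same sequence from different annotated starts.

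The week 1 and week 4 tables were scaled separately by the authors, which moved every gene. With FPM as deposited, the median gene was 0.22 log2 units higher at week 4 in LIDPAD and 0.23 higher in control livers. Limma then called 331 of 13477 tested genes in LIDPAD (2.46%), 329 of them higher (2.44%), and 1018 genes in control livers (7.55%), 1000 of them higher (7.42%). Values were therefore put on a common median-of-ratios scale over the 16 libraries of weeks 1 to 12, with factors of 0.828 to 0.859 for week 1 libraries and 1.00 to 1.04 for week 4 libraries. On that scale the median log2 change was -0.03 in LIDPAD and -0.01 in control livers. Levels below are FPM on the common scale, and a log2 change ± SE is the week 4 mean of log2(FPM + 0.5) minus the week 1 mean, which is too small for low genes. A change in 1 direction shared by most genes cannot be told apart from the scaling of the tables, and week cannot be told apart from anything else that differed between the tables.

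**Figure D1:**
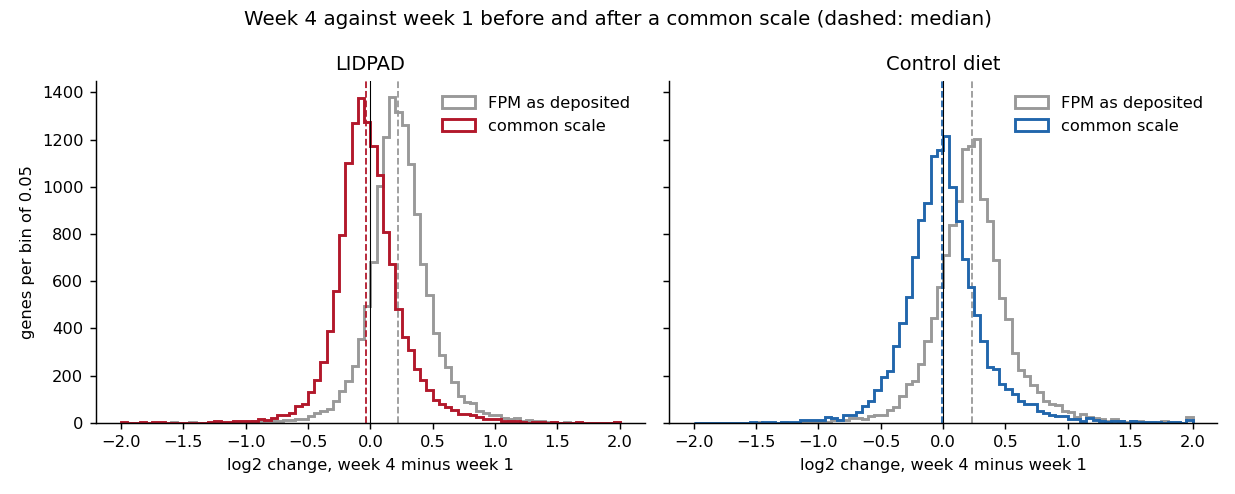
Number of genes per bin of log2 change, week 4 minus week 1, in LIDPAD (left) and control livers (right), for FPM as deposited (grey) and on the common scale (colour); values beyond 2 are in the end bins and dashed lines are medians. Both grey distributions sit to the right of 0, with medians near 0.22 and 0.23, and both coloured ones are centred close to 0.

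Plin4 alone was called in LIDPAD, where it was higher at week 4. This was 1 of 13621 genes tested (0.00734%) at an adjusted p under 0.05 (limma, Benjamini-Hochberg over all tested genes), with 0 genes lower and 1145 genes (8.41%) at an unadjusted p under 0.05. On whole reads edgeR called 2 genes, Plin4 and Gpc1, and DESeq2 called 55, 32 higher and 23 lower. In control livers 2 genes (0.0147%) were called, both lower, and 1841 (13.5%) had an unadjusted p under 0.05. They were Arl4d and the predicted gene Gm43189 (log2 change -1.19, adjusted p = 0.0426, limma), the latter named after its value was seen. The difference between the 2 diets' changes, which needs no scale between tables, passed for 0 genes with limma and edgeR and for 86 with DESeq2, and 1575 genes (11.6%) had an unadjusted p under 0.05. The median SE of a LIDPAD change was 0.18.

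Because so few genes passed, genes are also described by whether the 2 week 4 libraries both lay above or both below the 2 week 1 libraries, which is no test. Among all 13621 genes, 2279 (16.7%) did not overlap and were higher at week 4 in LIDPAD, and 3210 (23.6%) did not overlap and were lower. In control livers these shares were 19.1% and 20.3%. Counts of non-overlapping list members below are to be read against these shares. Non-overlapping LIDPAD genes with more than a 2-fold change numbered 48 higher (0.352%) and 42 lower (0.308%), against 94 (0.69%) and 54 (0.396%) in control livers. Exact permutation of 2 against 2 libraries cannot give a two-sided p below 0.333, so values summed per library are given without a p.

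Libraries of 1 group differed from each other in many genes. Of the genes tested, 256 differed more than 2-fold between the 2 LIDPAD week 1 libraries and 156 between the 2 LIDPAD week 4 libraries. Between the means of the 2 groups 95 did. Means of 2 libraries vary less than single libraries, so these counts are not like measures. Gpnmb, a glycoprotein of lipid-laden macrophages, was 0.254 and 10.1 FPM at week 1 and 1.66 and 1.01 FPM at week 4. Col1a1, a fibrillar collagen chain, was 6.71 and 27.6 FPM at week 1 and 9.63 and 6.82 FPM at week 4. Mki67, a marker of dividing cells, was 4.00 and 15.2 FPM, then 6.17 and 3.47 FPM. LIDPAD week 1 library 2 was thus the high one for all 3 genes, and week 4 lay between the week 1 libraries or below both. Among control livers, week 4 library 2 stood out in the same genes, at 10.8 FPM for Gpnmb against 0.135 in library 1, and 620 genes differed more than 2-fold between those 2 libraries. Without control week 4 library 1 the control comparison called 1198 genes in place of 2, and the difference between diets 394 in place of 0.

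**Figure D2:**
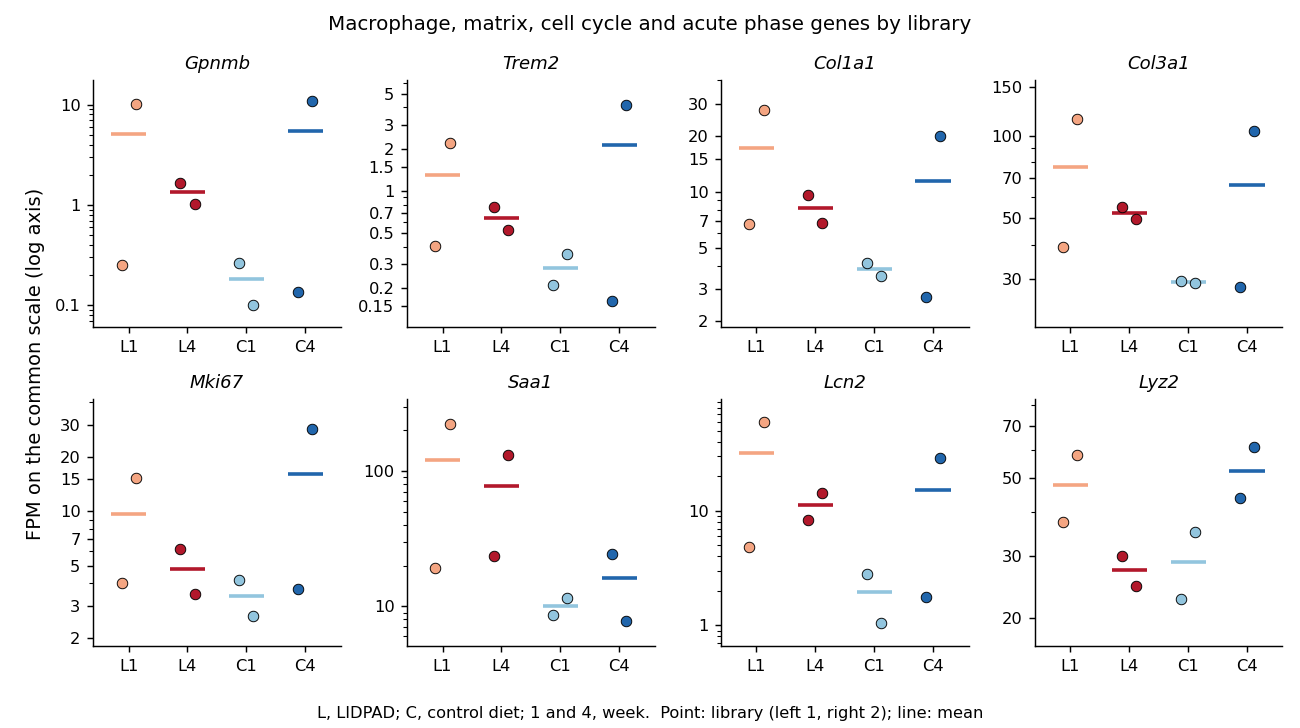
Levels in FPM on the common scale (log axis) of 8 macrophage, matrix, cell cycle and acute phase genes in each library, by diet and week; lines are group means, and Gpnmb in control week 1 library 2, listed at 0, is drawn at 0.1. LIDPAD week 1 library 2 and control week 4 library 2 are the high points for Gpnmb, Trem2, Col1a1, Col3a1, Mki67 and Lcn2.

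Of the genes of fat storage and fatty acid oxidation, Plin4 alone passed, and 8 of 25 oxidation genes and 5 of 15 lipid droplet genes were higher at week 4 without overlap, against 16.7% of all genes. Plin4 (chr17:56100591-56109803, minus strand), a perilipin that coats lipid droplets, was 13.0 and 13.9 FPM at week 1 and 37.99 and 57.9 FPM at week 4. Both week 4 libraries were above both week 1 libraries, and the control libraries lay lower, at 7.87 and 5.98 FPM at week 1 and 7.04 and 11.5 FPM at week 4. The means were 13.4 ± 0.663 and 48.0 ± 14.1 FPM (SD, n = 2 libraries), 3.57-fold, with a log2 change of 1.77 ± 0.23 (adjusted p = 0.0315, limma). In control livers its change was 0.37 ± 0.23, and the difference between diets was 1.40 ± 0.32 (adjusted p = 0.229, limma). The call was lost without LIDPAD week 1 library 1 (adjusted p = 0.208), week 1 library 2 (0.140) or week 4 library 2 (0.425). It was also lost when the spread came from the 8 libraries of weeks 1 and 4 alone (adjusted p = 0.399, limma) or from all 38 libraries (0.999).

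Cyp4a14, a fatty acid omega-hydroxylase and PPAR alpha target, was 67.4 and 45.5 FPM at week 1 and 196 and 195 FPM at week 4. The LIDPAD weeks did not overlap. In control livers Cyp4a14 was also higher without overlap, at 24.3 and 19.4 FPM, then 33.4 and 27.6 FPM (log2 change 0.48). Its LIDPAD log2 change of 1.81 ± 0.36 did not pass (adjusted p = 0.177, limma). The related Cyp4a10 was 194 and 120 FPM, then 265 and 241 FPM, and Vnn1, a pantetheinase under PPAR alpha, was 47.6 and 28.7 FPM, then 62.5 and 62.7 FPM. Both were higher in each week 4 library than in either week 1 library, with adjusted p of 0.616 and 0.485 (limma). Not all genes under PPAR alpha separated. Pdk4, the kinase that spares pyruvate, and Fgf21, a fasting hormone of the liver, overlapped between the weeks. Pdk4 was 2.91 and 9.95 FPM, then 5.51 and 3.50 FPM, and Fgf21 was 0.732 and 4.59 FPM, then 5.76 and 3.52 FPM.

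Among the 25 fatty acid oxidation genes 0 were called and 0 were lower without overlap. Their median log2 change was 0.17 in LIDPAD and -0.19 in control livers, where 1 was higher and 8 lower without overlap. The LIDPAD median rested on single libraries, at 0.039 without week 1 library 2, 0.094 without week 4 library 1 and 0.27 without week 1 library 1. Here and below, such a median covers the members that passed the filter without that library. Of the 15 tested lipid droplet and uptake genes, 1 was called (Plin4) and 1 was lower without overlap, with a median of 0.21 (0.12 without week 1 library 1 and 0.33 without week 4 library 2). In control livers 3 were higher and 2 lower without overlap, with a median of 0.06. Cidec, which fuses lipid droplets, was 4.65 and 9.56 FPM at week 1 and 16.3 and 11.7 FPM at week 4. Cd36, a fatty acid transporter, was 47.4 and 51.4 FPM, then 91.5 and 61.7 FPM. Pparg, the receptor that promotes fat storage, was 7.04 and 3.82 FPM, then 8.55 and 8.53 FPM. All 3 were higher in both week 4 libraries, and their adjusted p values were 0.616, 0.550 and 0.521 (limma). Cidec and Cd36 were also higher without overlap in control livers, with log2 changes of 1.41 and 0.55 there against 0.99 and 0.60 in LIDPAD. Plin2, the main perilipin of hepatocytes, was 235 and 262 FPM, then 323 and 251 FPM, and overlapped.

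Of 18 fatty acid synthesis genes, 8 were higher at week 4 without overlap in LIDPAD, against 16.7% of all genes. In control livers 0 were, against 19.1%. The difference between the diets passed for 0 of the 18 (limma). Fasn, fatty acid synthase, was 312 and 359 FPM at week 1 and 737 and 632 FPM at week 4 of LIDPAD, against 2423 and 1263 FPM, then 1517 and 906 FPM in control livers. The LIDPAD weeks did not overlap, and every LIDPAD library was below every control library. Its log2 change was 1.03 ± 0.43 in LIDPAD (adjusted p = 0.550) and the difference between diets 1.61 ± 0.61 (adjusted p = 0.362, limma). Mlxipl, which encodes ChREBP, was 108 and 87.5 FPM, then 140 and 134 FPM, a log2 change of 0.50 ± 0.16 (adjusted p = 0.437, limma). Srebf1, which encodes SREBP1, was 315 and 295 FPM, then 394 and 412 FPM. Pnpla3, a lipase of lipid droplets that follows SREBP1c, was 0.455 and 0.960 FPM, then 2.26 and 1.59 FPM, far under the 6.16 to 20.6 FPM of control libraries. Scd1, the stearoyl-CoA desaturase, overlapped between the weeks (15216 and 11658 FPM, then 21419 and 13941 FPM). Of the list 0 were called and 0 were lower without overlap in LIDPAD, with a median log2 change of 0.38. That median was 0.11 without LIDPAD week 4 library 1 and 0.23 without week 1 library 2. In control livers 2 were lower without overlap, with a median of -0.22.

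Cholesterol synthesis genes had no shared direction in LIDPAD. Of 25 genes 0 were called, and 5 were higher and 8 lower without overlap, against 16.7% and 23.6% of all genes. Their median was -0.08, and ran from -0.18 without week 4 library 1 to 0.094 without week 4 library 2. It was -0.0018 without week 1 library 1 and -0.16 without week 1 library 2. In control livers all 25 had a log2 change below 0 (median -0.44) and 0 were called. Without overlap 8 were lower there, against 20.3% of all genes. Fdps, farnesyl diphosphate synthase, was 0.757 and 0.933 FPM at week 1 and 2.36 and 2.92 FPM at week 4. Sqle, squalene epoxidase, went the other way (3.85 and 6.03 FPM, then 3.54 and 2.80 FPM). Neither gene overlapped between the LIDPAD weeks, neither passed (adjusted p = 0.470 and 0.787, limma), and both were lower in every LIDPAD library than in every control library.

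Of 17 tested genes of bile acid synthesis and transport, 8 were lower at week 4 without overlap in LIDPAD and 1 was higher. Among all genes these shares were 23.6% and 16.7%. Cyp7a1, which sets the rate of bile acid synthesis, was 254 and 126 FPM at week 1 and 102 and 73.6 FPM at week 4, against 19.7 to 57.2 FPM in control libraries. Its log2 change of -1.04 ± 0.44 did not pass (adjusted p = 0.553, limma). Cyp2c70, which makes the muricholic acids of mice, was 452 and 511 FPM, then 270 and 313 FPM, a log2 change of -0.72 ± 0.13 (adjusted p = 0.177, limma), while control libraries held 341 to 410.5 FPM in both weeks. Abcc3, an exporter of bile acid conjugates to blood, was 208 and 131 FPM, then 268 and 292 FPM. Of the list 0 were called, and the median was -0.21, and -0.36 in control livers. In LIDPAD it was -0.022 without week 1 library 1 and -0.43 without week 1 library 2, and relative to all genes it moved from -0.18 to -0.085 with quantile normalization. Abcg5, a sterol exporter, was 153 and 149 FPM, then 137 and 160 FPM, and overlapped.

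The other genes with the smallest p for a higher level at week 4 belonged to several functions, and none passed. Gpc1, a cell-surface heparan sulfate proteoglycan, was 7.33 and 7.11 FPM at week 1 and 19.2 and 14.8 FPM at week 4, with 3.97 to 5.74 FPM in control libraries. Its log2 change of 1.17 ± 0.17 missed the threshold narrowly (adjusted p = 0.0501, limma). Neat1, the nuclear RNA that builds paraspeckles, was 104 and 309 FPM, then 733 and 2019.9 FPM, a log2 change of 2.76 ± 0.55 (adjusted p = 0.177, limma). Its 2 libraries of each week were far apart, and control libraries held 307 to 550.5 FPM. P4ha1, a collagen prolyl hydroxylase, had a log2 change of 0.81 in LIDPAD and 0.79 in control livers. Ube2e2, Ildr2, Shank2, Cyp4f17, Rgr, Wfdc2 and Mroh1 completed the 12 genes named by the rule, with log2 changes of 0.50 (Mroh1) to 0.91 (Rgr) and adjusted p of 0.182 to 0.311 (limma). Ildr2 and Wfdc2 were also higher without overlap in control livers, with log2 changes of 0.54 and 0.43 there. Shank2, Cyp4f17 and Rgr were lower there without overlap, and Ube2e2 and Mroh1 overlapped.

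Cfd, the protease adipsin known from fat cells, was 46.1 and 12.0 FPM at week 1 and 98.4 and 99.97 FPM at week 4 of LIDPAD, and at most 0.886 FPM in control libraries. The weeks did not overlap, and the log2 change of 2.04 ± 0.62 did not pass (adjusted p = 0.420, limma). The fat cell markers Adipoq, Lep, Plin1 and Retn were at most 0.0864 FPM in the 4 LIDPAD libraries, and Lep was at 0 in all 4. Fabp4 was 3.24 and 4.20 FPM, then 3.84 and 4.17 FPM, and overlapped.

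**Figure D3:**
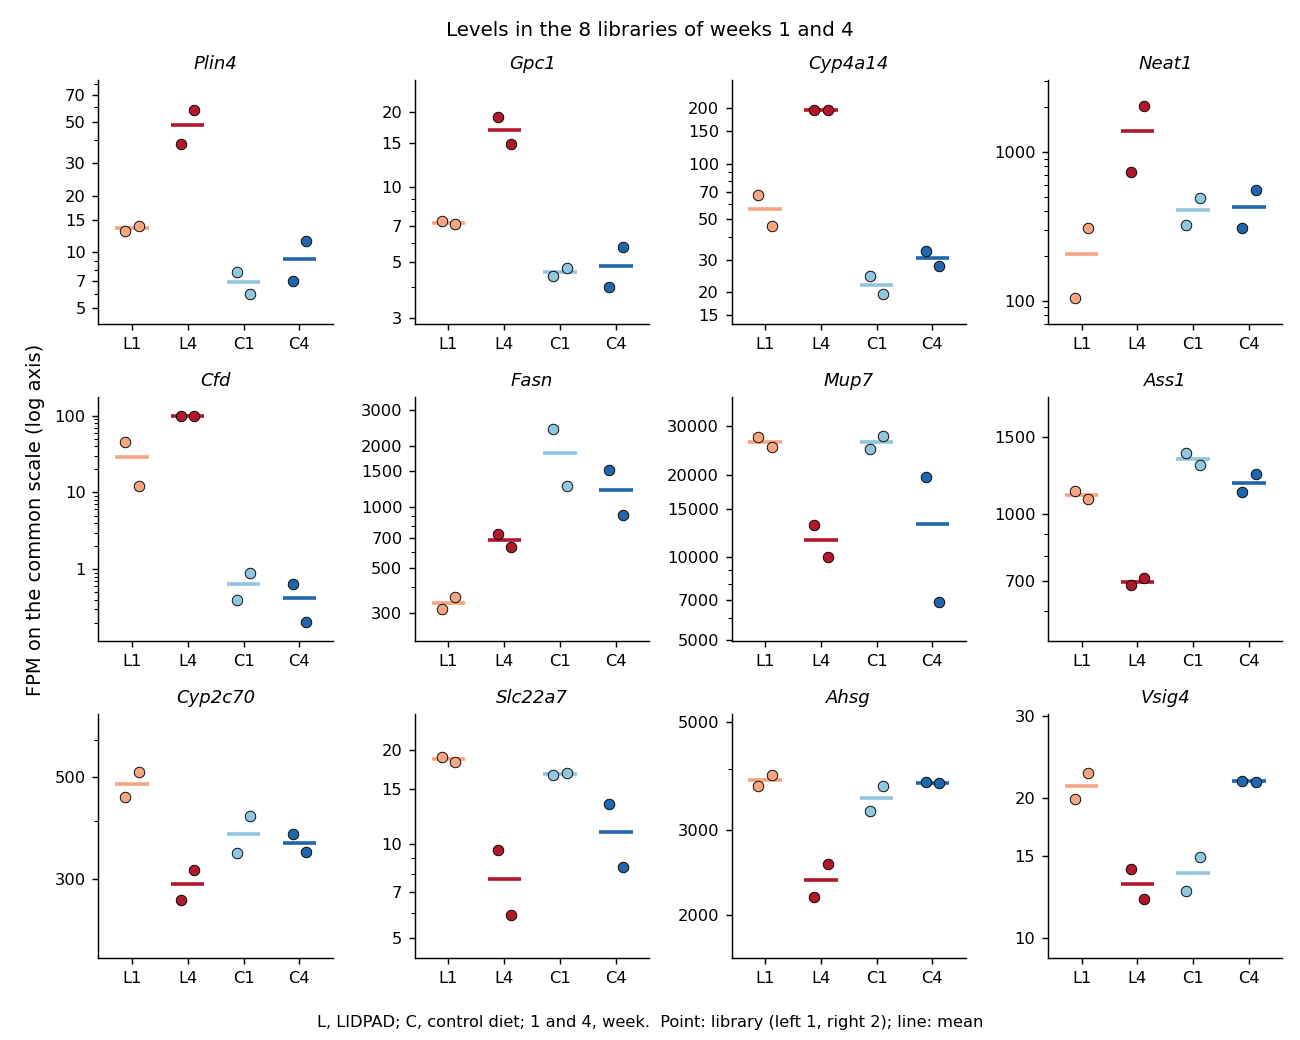
Levels in FPM on the common scale (log axis) of 12 genes in the 8 libraries of weeks 1 and 4; each point is a library and each line a group mean. In LIDPAD the week 4 points of Plin4, Gpc1, Cyp4a14, Neat1, Cfd and Fasn lie above both week 1 points, and those of Mup7, Ass1, Cyp2c70, Slc22a7, Ahsg and Vsig4 lie below both.

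On the common scale the major urinary proteins had the lowest median of the lists with 5 or more tested genes, and under both diets. Together they took 20.7 and 21.2% of the summed FPM of the LIDPAD week 1 libraries and 15.0 and 11.8% of the week 4 libraries. In control livers the shares were 19.7 and 20.5%, then 15.8 and 7.91%. The weeks did not overlap under either diet, and the 2 control week 4 libraries were far apart. Mup7, whose promoter is shown above, was 27442 and 25293 FPM, then 13072 and 9997 FPM (log2 change -1.20 ± 0.52, adjusted p = 0.555, limma). Mup15 was 9796 and 9203 FPM, then 4715 and 3488 FPM, and Mup17 4970.2 and 4625 FPM, then 2616 and 1732 FPM. Of 19 tested Mup genes 0 were called, 18 did not overlap and were lower in LIDPAD, and 16 in control livers, against 23.6% and 20.3% of all genes. The medians were -0.95 and -1.13. Relative to all genes the LIDPAD median was -0.91 on the common scale and -0.31 with quantile normalization, which no longer made it the lowest. Mup genes are near-identical copies whose reads the authors' counting may have split, so single members are uncertain. The pseudogene Mup-ps20 had the smallest p of the lower genes, at 5.31 and 3.51 FPM, then 0.601 and 0.694 FPM (log2 change -2.07 ± 0.36, adjusted p = 0.177, limma).

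Most periportal and urea cycle transcripts were lower at week 4 of LIDPAD without overlap, and none passed. Ass1, argininosuccinate synthase, was 1126 and 1081 FPM at week 1 and 687 and 712 FPM at week 4. In control livers it was 1376 and 1293 FPM, then 1123 and 1232 FPM. The weeks did not overlap under either diet. The log2 change was -0.66 ± 0.13 in LIDPAD (adjusted p = 0.177, limma) and -0.18 in control livers. Slc25a15, the mitochondrial ornithine carrier, was 204 and 199 FPM, then 134 and 155 FPM. Cps1, which makes carbamoyl phosphate for urea, was 4622 and 4079.9 FPM, then 2639 and 3269 FPM. Slc25a15 and Cps1 were also lower without overlap in control livers, with log2 changes of -0.37 and -0.26 there against -0.48 and -0.56 in LIDPAD. Of 12 genes in the list 0 were called. Without overlap 10 were lower, against 23.6% of all genes, and 0 higher, with a median of -0.47. In control livers 7 were lower without overlap, against 20.3% of all genes, with a median of -0.28.

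Of 15 glucose production genes 0 were called. Without overlap 7 were lower and 2 higher in LIDPAD, against 23.6% and 16.7% of all genes, with a median of -0.17. That median was -0.018 without week 1 library 1 and -0.064 without week 4 library 1, and in control livers it was -0.31, with 7 lower. Tat, tyrosine aminotransferase, was 770.4 and 981 FPM, then 486 and 564 FPM, and Pck1, the rate-limiting enzyme of glucose production, was 1515 and 1796 FPM, then 806 and 1278 FPM. Neither overlapped in LIDPAD, and both were lower without overlap in control livers too (log2 changes -0.54 and -0.77). Ahsg, the plasma protein fetuin A, was 3689.8 and 3886 FPM at week 1 and 2176 and 2543 FPM at week 4, while control libraries held 3277 to 3753 FPM. Its log2 change was -0.69 ± 0.20 (adjusted p = 0.348, limma). Of 17 complement and coagulation genes 0 were called, 11 did not overlap and were lower and 1 higher (median -0.23, and -0.11 without week 4 library 1). Relative to all genes that median moved from -0.20 to -0.018 with quantile normalization. Without overlap, 3 of 12 apolipoprotein genes and 3 of 15 acute phase genes were lower, close to the 23.6% of all genes. C9, a subunit of the membrane attack complex, and F11, a clotting factor, had log2 changes of -0.65 and -0.56. In control livers these were -0.35 and -0.44, and F11 was lower there without overlap while C9 overlapped. Enho, the hormone precursor adropin, was 4.33 and 7.29 FPM, then 0.878 and 2.69 FPM, and Apom, a carrier of sphingosine phosphate, was 92.9 and 93.3 FPM, then 62.1 and 67.4 FPM.

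Among the remaining genes with the smallest p for a lower level, none passed (adjusted p 0.177 to 0.311, limma). Slc22a7, an organic anion transporter of hepatocytes, was 18.9 and 18.3 FPM, then 9.56 and 5.90 FPM. Bmf, a BH3-only promoter of apoptosis, was 10.3 and 8.14 FPM, then 3.96 and 3.79 FPM. Slc22a7 and Bmf were also lower without overlap in control livers. Their log2 changes were -0.63 and -0.42 there, and -1.25 and -1.15 in LIDPAD. Ocln, the tight junction protein occludin, was 17.7 and 20.0 FPM, then 12.2 and 10.0 FPM, and control libraries held 17.8 to 21.2 FPM in both weeks. Tff3, a secreted trefoil peptide, was 2.10 and 6.05 FPM, then 0.765 and 0.810 FPM. The matrix protein gene Dpt and Lancl1 had log2 changes of -0.85 and -0.53. Arl4d, a small GTPase, was 18.8 and 19.1 FPM, then 11.4 and 6.76 FPM in LIDPAD, a log2 change of -1.07 ± 0.20 that did not pass (adjusted p = 0.177). In control livers it fell from 17.8 and 14.8 FPM to 4.86 and 6.04 FPM (log2 change -1.50, adjusted p = 0.0426, limma). Both week 4 libraries were below both week 1 libraries under each diet.

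Of 12 Kupffer cell markers, 9 were lower at week 4 without overlap in LIDPAD, against 23.6% of all genes. In control livers 11 were higher without overlap, against 19.1%. The difference between the diets passed for 0 of the 12 (limma). Vsig4, a complement receptor of Kupffer cells, was 19.9 and 22.6 FPM, then 14.0 and 12.1 FPM in LIDPAD, and 12.6 and 14.9 FPM, then 21.7 and 21.7 FPM in control livers. The weeks did not overlap under either diet, and the directions were opposite, with a difference between diets of -1.33 ± 0.24 (adjusted p = 0.229, limma). Clec4f, a lectin of Kupffer cells, was 76.1 and 87.6 FPM, then 64.4 and 51.5 FPM in LIDPAD, and 57.2 and 63.0 FPM, then 75.7 and 86.2 FPM in control livers. Marco, a scavenger receptor, was 2.43 and 6.72 FPM, then 2.06 and 1.33 FPM in LIDPAD, and 2.34 and 4.32 FPM, then 9.65 and 10.8 FPM in control livers. Of the markers 0 were called under either diet, with a median of -0.41 in LIDPAD and 0.60 in control livers. The summed Kupffer marker level was 329 and 436 FPM, then 315 and 249 FPM in LIDPAD. Without LIDPAD week 1 library 2 the median was -0.24, without week 1 library 1 it was -0.64, and without week 4 library 2 it was -0.25. In whole liver, fewer cells of a type and less RNA per cell cannot be told apart.

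Markers of recruited macrophages, dividing cells and matrix depended on LIDPAD week 1 library 2. Of 13 tested recruited macrophage markers 0 were called and 4 did not overlap and were lower, against 23.6% of all genes. Their median was -0.46, and 0.11 without that library and -1.02 without week 1 library 1. Lyz2, lysozyme of macrophages, was 37.5 and 58.1 FPM, then 30.1 and 24.6 FPM, and did not overlap. Trem2, a lipid receptor of macrophages, was 0.404 and 2.21 FPM, then 0.765 and 0.522 FPM, and did. For 14 tested cell cycle genes the median was -0.32, and 0.21 without that library and -1.07 without week 1 library 1. Col3a1 was 39.2 and 115 FPM, then 55.1 and 49.7 FPM. The median of 23 tested collagen and matrix genes was -0.12, and 0.20 without that library and -0.37 without week 1 library 1, so no direction is given for these lists.

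Acute phase and clock genes varied within a week. Saa1, an acute phase apolipoprotein, was 19.3 and 221 FPM at week 1 and 23.7 and 132 FPM at week 4, and Lcn2, lipocalin 2, was 4.83 and 59.5 FPM, then 8.38 and 14.3 FPM. Neither separated the weeks. Hpx, hemopexin, was 2172 and 3415 FPM, then 1808 and 2015 FPM, and Hamp, the iron hormone hepcidin, was 184 and 164 FPM, then 77.7 and 148 FPM. Both were lower in each week 4 library than in either week 1 library. The activator Arntl was 3.77 and 10.0 FPM, then 6.73 and 6.89 FPM, while Dbp, a PAR bZIP output gene, was 17.6 and 8.12 FPM, then 9.07 and 12.6 FPM. Their log2 ratio, Arntl over Dbp, was -2.09 and 0.29 at week 1, -0.41 and -0.82 at week 4 and 2.94 to 4.74 in the control libraries. The 2 LIDPAD week 1 libraries thus stood at the outer ends of the LIDPAD range, and the hour of collection is not in the labels. Per3, a period gene, was 13.6 and 8.01 FPM, then 9.95 and 16.7 FPM. Of 17 clock genes 0 were called, 2 did not overlap and were higher and 0 lower (median 0.07), against 16.7% and 23.6% of all genes. The median changed sign, to -0.092 without LIDPAD week 1 library 2 and -0.037 without week 4 library 2, and was 0.15 and 0.14 without the other library of each week.

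Most heat shock genes were higher at week 4 without overlap under both diets, and none passed. Of 10 members 0 were called, and 8 did not overlap and were higher and 1 lower in LIDPAD (median 0.57). In control livers 7 did not overlap and were higher (median 0.43). Among all genes 16.7% were higher and 23.6% lower without overlap in LIDPAD, and 19.1% higher in control livers. The LIDPAD median was 0.32 without week 4 library 2. Hspb1, a small heat shock protein, was 11.4 and 9.73 FPM, then 14.6 and 17.8 FPM in LIDPAD, a log2 change of 0.59 that was 0.60 in control livers. Hsp90aa1, the inducible HSP90, was 150 and 152 FPM, then 183 and 203 FPM. Of 18 cytosolic ribosomal protein genes 0 were called and 16 did not overlap and were lower in LIDPAD, by little (median -0.16), while 5 did not overlap and were higher in control livers (median 0.19). All 13 genes encoded by mitochondria had a log2 change below 0 in LIDPAD (median -0.25, and -0.29 in control livers), against 56.5% of all genes. Their LIDPAD median was -0.073 without week 1 library 1 and -0.44 without week 1 library 2. Relative to all genes, quantile normalization moved it from -0.22 to -0.024 and that of the ribosomal protein genes from -0.13 to -0.063. These small medians were below 0 on the common scale, and the median shift of all genes in FPM as deposited, at 0.22, is as large.

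Of 17 interferon response genes 0 were called, and 10 did not overlap and were lower and 2 higher in LIDPAD (median -0.28). In control livers 11 were higher and 0 lower without overlap (median 0.32). The difference between the diets passed for 0 of the 17 (limma). Among all genes 23.6% were lower and 16.7% higher without overlap in LIDPAD, and 20.3% lower and 19.1% higher in control livers. Ifit3 was 23.4 and 17.3 FPM, then 14.2 and 14.2 FPM, and Rsad2, viperin, was 15.1 and 15.0 FPM, then 10.0 and 13.0 FPM. Glutathione and NRF2 target genes were mixed in LIDPAD, with 6 of 17 higher and 1 lower without overlap (median 0.10). That median changed sign, to -0.055 without week 1 library 1 and -0.029 without week 4 library 1, and was 0.22 and 0.23 without the other library of each week. In control livers 15 of the 17 had a log2 change above 0 (median 0.58), and 2 were higher without overlap. Gstm1, a glutathione transferase, was 321 and 373 FPM, then 601 and 494 FPM. Of 10 hepatocyte identity factor genes 0 were called, and 5 had a log2 change above 0 and 5 below 0 in LIDPAD (median 0.03). Without overlap 3 were higher and 1 lower. Of these, the liver transcription factor gene Foxa2 was 10.2 and 7.77 FPM, then 11.3 and 17.5 FPM, higher in both week 4 libraries (adjusted p = 0.433, limma). The receptor gene Adgrf1 was 9.70 and 6.49 FPM, then 3.15 and 4.34 FPM, Gria3 was 0.809 and 2.33 FPM, then 0.393 and 0.404 FPM, and Chrna4 was 0.202 to 1.04 FPM, against 9.60 to 27.9 FPM in control libraries.

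**Figure D4:**
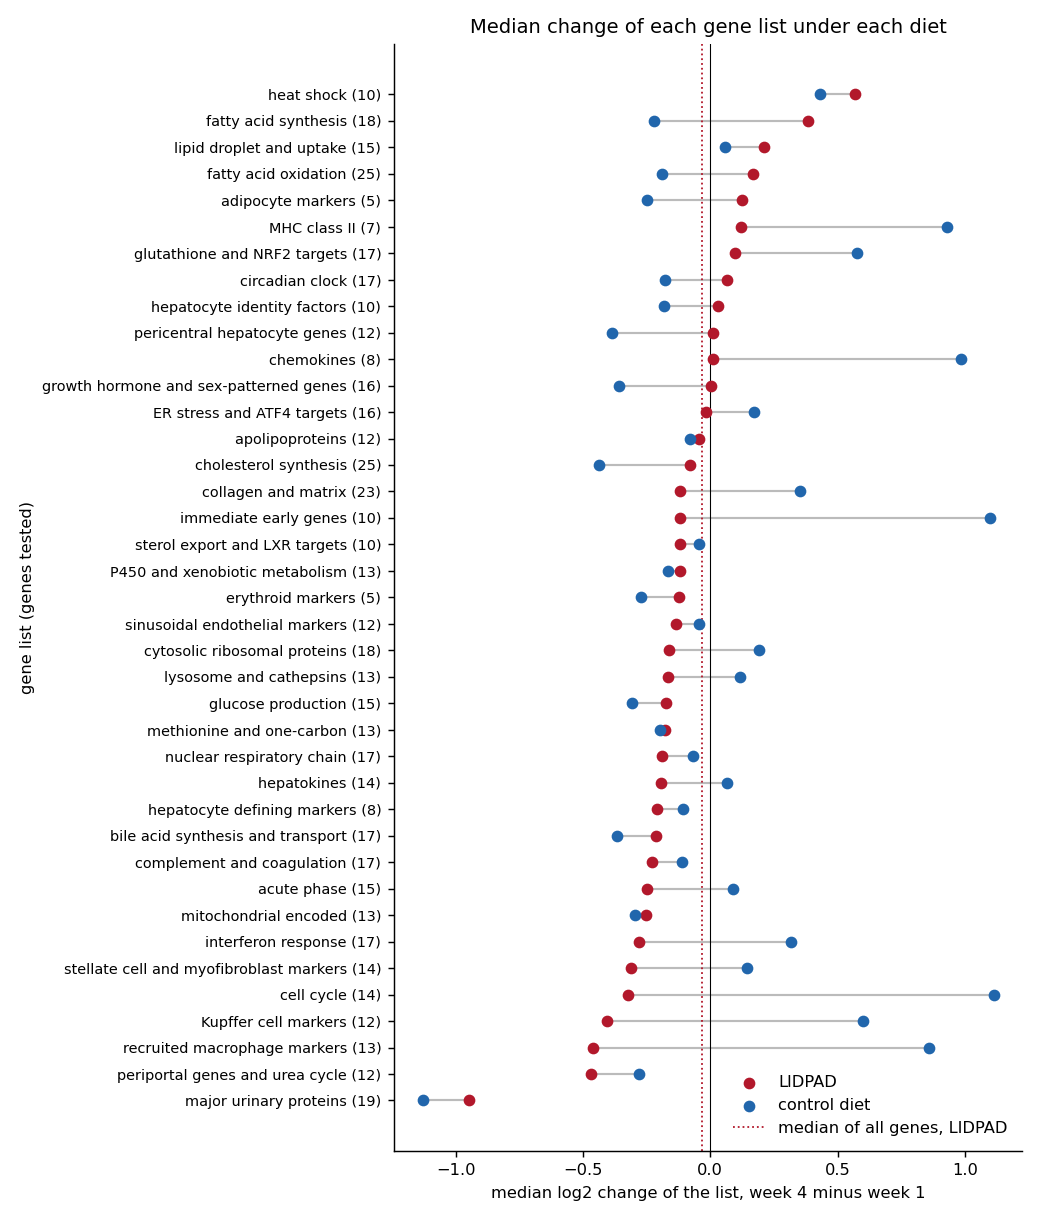
Median log2 change, week 4 minus week 1, of each gene list with at least 5 tested genes, for LIDPAD (red) and control livers (blue); the dotted line is the median of all genes in LIDPAD. On this scale the major urinary proteins are lowest under both diets and heat shock genes are above 0 under both, while fatty acid synthesis is above 0 in LIDPAD alone and Kupffer cell markers are above 0 in control livers alone.

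Across the 13621 tested genes, Pearson's r between the changes under the 2 diets was -0.04. The 2 comparisons share no libraries but share the 2 tables, and genes are not independent replicates. The genes named for the difference between the diets all had an adjusted p of 0.229 (limma). Higher in LIDPAD relative to control were Shank2, Cyp4f17, Hipk2, Mylk and Cyp4a32, with differences of 0.71 (Hipk2) to 1.24 (Cyp4a32). Cyp4a32, another omega-hydroxylase, was 24.0 and 19.3 FPM, then 26.4 and 25.7 FPM in LIDPAD, and 23.5 and 16.0 FPM, then 10.2 and 9.25 FPM in control livers. Most of its difference thus lay in the control libraries. Lower in LIDPAD relative to control were Dpt and the macrophage genes Vsig4, Cxcl16 and Clec12a, with differences of -1.31 (Cxcl16) to -1.58 (Clec12a). Clec12a, an inhibitory lectin of myeloid cells, was 4.03 and 5.83 FPM, then 3.78 and 2.61 FPM in LIDPAD, and 2.28 and 2.52 FPM, then 4.80 and 6.11 FPM in control livers.

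**Figure D5:**
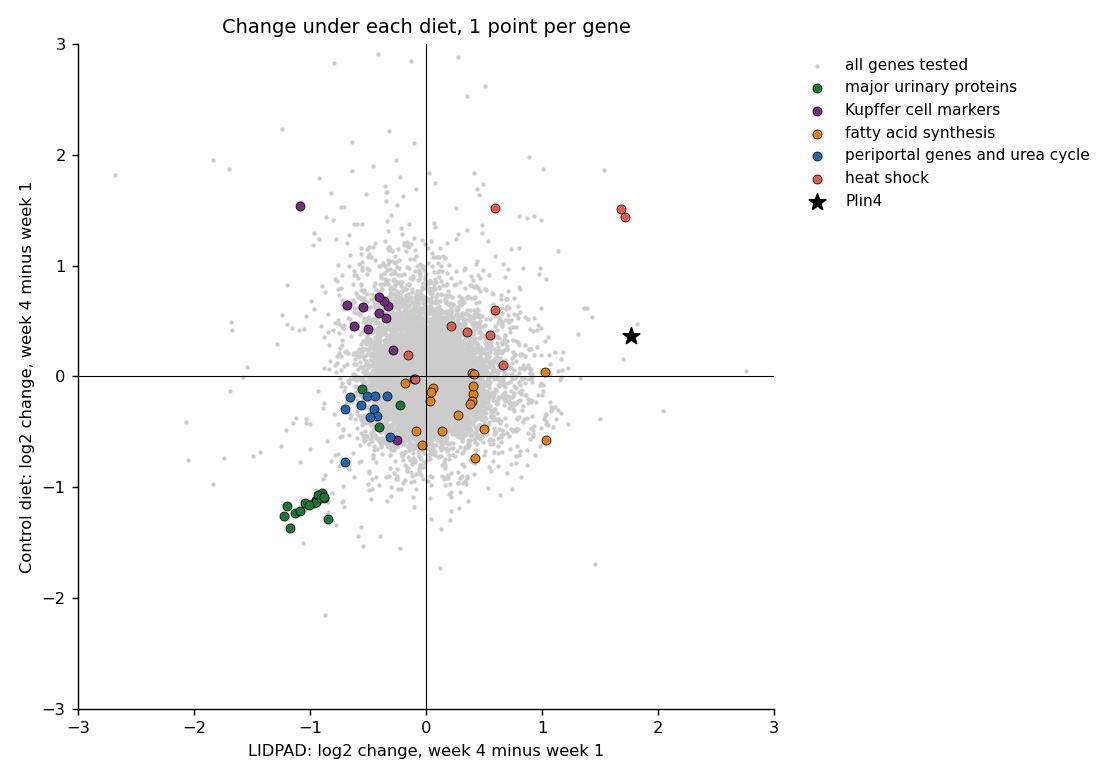
Log2 change, week 4 minus week 1, under LIDPAD (x axis) and under control diet (y axis), 1 point per gene of the 13621 tested, with 5 gene lists and Plin4 marked. Mup genes lie low on both axes, Kupffer markers lie mostly left of and above 0, fatty acid synthesis genes lie mostly right of and below 0, and Plin4 lies at 1.77 on the LIDPAD axis and 0.37 on the control axis.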

How the data were processed

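The authors' deposited signal values are FPM, read counts scaled by a size factor, in 7 tables, 1 per feeding time, of 54532 genes. The submitters' processing notes list HISAT2, featureCounts, DESeq2 and the build GRCm38 with no roles; versions, strand setting and filters are not given in the sources used here. Values were whole multiples of 1 step, and 100% came out as whole reads within 0.02 reads. Columns were merged to 38 libraries from a chi-square over genes with 200 to 2000 pooled reads.

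Limma 3.58.1 (R 4.3.3) was fitted to log2(FPM + 0.5) on the common scale of the 16 libraries of weeks 1 to 12 (8 groups of 2), with 1 mean per group, moderation along a mean-variance trend and two-sided tests, on the 13621 genes with at least 1 FPM in at least 2 of the 8 libraries of weeks 1 and 4. Setting levels across separately scaled tables rests on that scale; the difference between the diets does not. Genes were called at a Benjamini-Hochberg adjusted p under 0.05. Alternatives included edgeR 4.0.16 (quasi-likelihood) and DESeq2 1.42.0 on the whole reads. The procedure was tested on simulated data.

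The samples, the 45 gene lists (538 of 611 genes tested) and the rules were chosen with earlier results of these data known. Named genes are the 12 rises and 12 falls in LIDPAD, and 5 each for the difference between diets, taken from called genes by size and then, where too few were called, from non-overlapping genes by unadjusted p, leaving out predicted genes. Further names are 31 index genes and per list the 2 members of lowest p, of which part are printed; some of the genes the rule names are not reported here. Gene positions came from the GENCODE annotation and promoters from RefSeq, both of GRCm38; all 3 promoters looked for were matched. Scripts ran on Python 3.11.15 with pandas 2.3.3, numpy 2.4.6 and, for plots, matplotlib 3.10.9. Depth of 24.8 to 53.8 M per library leaves low genes the least precise.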

Additional observations from a re-analysis of the deposited data

How the results depend on the processing

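The count of genes called rests on the scale and on single libraries. LIDPAD week 4 against week 1, with 1 call, gave 2 with a pseudocount of 1, a filter of 5 FPM, TMM scaling, quantile normalization, library weights or edgeR, and 0 when rescaled to a total of 1000000, with the 8 libraries of weeks 1 and 4, with all 38 libraries or with the 4 libraries of the diet. DESeq2 gave 55, FPM as deposited 331 and each column as a sample 1846. Control week 4 against week 1, with 2 calls, gave 4 with no filter, 1 with no trend, 1018 with FPM as deposited, 169 with DESeq2, 3208 with each column as a sample, and 0 when rescaled to a total of 1000000, with quantile normalization, library weights, edgeR, the 8 libraries, all 38 libraries or the 4 libraries of the diet. The difference between the diets, with 0 calls, gave 1 with no trend, 86 with DESeq2 and 2780 with each column as a sample. Columns as samples count parts of a library as replicates. With no trend the 1 LIDPAD call was another gene than Plin4, and the 1 control call was not among the 2 above. Leaving out 1 library gave 0 to 3 calls in LIDPAD, 0 to 1198 in control livers (1198 without control week 4 library 1) and 0 to 394 for the difference (394 without the same library); the lone library left is assumed to vary like the other groups. The cause of these shifts was not tested.

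The Plin4 call was lost under 8 alternatives, with an adjusted p of 0.0563 when rescaled to a total of 1000000, 0.0722 with no trend, 0.148 with the 4 LIDPAD libraries, 0.399 with the 8 libraries, 0.999 with all 38, and 0.208, 0.140 and 0.425 without LIDPAD week 1 library 1, week 1 library 2 and week 4 library 2 (limma). Over all alternatives its adjusted p ran from 1.77e-16 to 0.999, and its log2 change was above 1.46 in each. Gpc1 passed under 9 of them, with edgeR at an adjusted p of 0.0311.

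Library numbers were not used to pair the samples. The correlation of same-numbered deviations was 0.07 between the LIDPAD weeks and -0.05 between the control weeks. Over all pairs of groups of weeks 1 to 12 it ran from -0.22 to 0.56. The 0.56 was between control week 4 and LIDPAD week 1, and control weeks 1 and 8 had 0.32. With 2 libraries per group, each pair of groups gives 1 such value, which cannot show whether the numbers pair the libraries. With the replicate block the counts were 1, 2 and 0, as without it, and Plin4 kept its call (adjusted p = 0.0388, limma). Of the 2 control calls with the block, only 1 was also called without it.

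Among the printed genes and the alternatives under which each passed the filter, 13 changed sign in LIDPAD. Trem2, at 0.404 FPM in the other week 1 library, did not pass the filter without LIDPAD week 1 library 2 and is not among them. With FPM as deposited and when rescaled to a total of 1000000 the log2 changes were 0.25 and 0.28 for Abcg5, 0.11 and 0.14 for Dbp and 0.051 and 0.082 for Saa1. Abcg5 was also 0.077 with quantile normalization, 0.0077 with each column as a sample, 0.0096 with edgeR and 0.0023 with DESeq2. Leaving out 1 library gave ranges of -0.14 to 0.084 for Abcg5, -0.52 to 0.77 for Arntl, -0.20 to 0.93 for Chrna4, -1.71 to 0.26 for Col1a1, -1.12 to 0.41 for Col3a1, -0.70 to 0.38 for Dbp, -0.020 to 2.03 for Fgf21, -2.55 to 1.27 for Gpnmb, -2.39 to 1.10 for Lcn2, -1.61 to 0.19 for Mki67, -1.09 to 0.52 for Pdk4, -0.072 to 0.66 for Per3 and -1.97 to 1.51 for Saa1. Among list medians taken relative to all genes, those of apolipoproteins, chemokines, methionine and one-carbon genes and hepatocyte defining markers changed sign with the scaling.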

Other observations

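Transcripts that are not protein-coding made up much of the larger rises in LIDPAD. Of the 48 genes that were higher by more than 2-fold without overlap, 18 (37.5%) were protein-coding, against 32 of 42 (76.2%) among those lower by more than 2-fold and 85.6% of all 13621 genes tested. Malat1, an abundant nuclear RNA and not one of these 48, was 1399.7 and 1565 FPM at week 1 and 1676 and 1879 FPM at week 4. Its log2 change was 0.26 ± 0.23 (adjusted p = 0.772, limma), and it was named after its values were seen. In control livers it was lower without overlap, at 2205 and 1985 FPM, then 1453 and 1618 FPM. The count of protein-coding genes was made after seeing the data, for LIDPAD alone and without matching genes for level, and was not tested.

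Themis, known from T cells, was 1.72 and 1.42 FPM at week 1 and 4.75 and 2.69 FPM at week 4 of LIDPAD, and at most 1.21 FPM in control libraries. The LIDPAD weeks did not overlap and the log2 change of 0.98 did not pass (adjusted p = 0.462, limma). Themis was also higher without overlap in control livers, at 0.264 and 0.288 FPM, then 0.325 and 1.21 FPM (log2 change 0.62). Cish, a target of growth hormone signalling, was 1.34 and 1.21 FPM, then 1.78 and 9.48 FPM, so its higher mean at week 4 came mostly from week 4 library 2.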
